A study of Mus musculus with 12 samples.

Results

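The genes described here are 9 transcription factors that mark neural crest mesenchyme: the basic helix-loop-helix factors Twist1, Twist2, Hand1 and Hand2, the zinc-finger factor Snai2, and the paired-type homeodomain factors Prrx1, Prrx2, Alx1 and Alx4. They were listed by symbol, with earlier results of these data known, and looked up by gene identifier in a table of FPKM values (fragments per kilobase of gene, corrected for the size of the library, hence a level per gene length) for 19083 genes. Of the 9 genes, 8 had a row; Hand1 is not analysed here. All 8 reached at least 1 FPKM in at least 3 of 12 libraries, the minimum for testing that 14107 genes met.

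RNA came from micro-dissected palatal shelves of 12 single mouse embryos of the C57BL/6 strain at embryonic day 14, with 3 embryos in each of 4 groups. The WAY mutants were Pax9-/- embryos and the WAY controls were 2 Pax9+/+ embryos and 1 Pax9+/- embryo, all from Pax9+/- dams given WAY-262611 into the tail vein every day from E10.5 to E14. The untreated mutants were Pax9-/- embryos and the untreated controls were 1 Pax9+/+ embryo and 2 Pax9+/- embryos, with treatment labelled as control and no vehicle named. WAY-262611 is a small molecule that promotes Wnt signalling by blocking the secreted Wnt antagonist Dkk1, and Pax9 encodes a paired-box factor without which the palate stays cleft. The Pax9 allele is not described further in the labels, and no promoter or Cre driver is named in them. The numbers shared by sample titles were read as litters: in each treatment replicate 1 of both genotypes came from 1 litter and replicates 2 and 3 from another, so each treatment rests on 2 dams. The series poses the question of how a Wnt agonist alters palate formation in mutants and their littermates.

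Cranial neural crest cells migrate from the dorsal neural tube into the facial prominences, where they become ectomesenchyme, the source of most facial bone, cartilage and connective tissue, including the core of the palatal shelves. Twist1 and Snai2 act in the change from epithelial to mesenchymal state, and Twist1 also keeps cranial crest cells on a skeletal path. Prrx1 and Prrx2 work redundantly in craniofacial and limb mesenchyme, and Alx1 and Alx4 pattern the frontonasal region, and mutations of either cause frontonasal dysplasia in people. Hand1 and Hand2 are targets of endothelin signalling in the lower jaw, and Hand2 is also needed in sympathetic neurons, which also come from the neural crest.

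The 19083 genes of the table held 36.9 to 49.9 M reads a library, recovered from the FPKM values. The column names carry 2 prefixes, called here the 4-library prefix (replicate 1 of each group) and the 8-library prefix (replicates 2 and 3). The prefix coincides with the litter within each treatment, and principal component 1 (52.5% of variance) separated the prefixes. Pax9 itself was at 4.75 to 7.3 FPKM in mutants and 20.3 to 37.5 FPKM in controls, so each library matched its label as mutant or control. This does not check the treatment or litter labels. All 6 neural crest mesenchyme markers (the members Twist1, Prrx1 and Prrx2 with Pdgfra, Col1a1 and Col3a1) were detected in each library, summing to 1878 to 2430 FPKM in the 8-library prefix and 1148 to 1297 FPKM in the 4-library prefix. The summed bone markers were at 579 to 1102 FPKM in the 8-library prefix and 43.3 to 78.2 FPKM in the 4-library prefix. Of these markers Runx2 ranged only from 17.2 to 25.4 FPKM over the 12 libraries, so that gap lies mainly in the others. The summed cartilage markers were at 43.6 to 79.1 FPKM in the 8-library prefix and 141 to 190 FPKM in the 4-library prefix. The source of these prefix differences was not tested, and in bulk RNA fewer cells of a type and less RNA per cell cannot be told apart.

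Promoter sequences from RefSeq (build GRCm38.p6, 250 bases before to 50 bases after the start) were held for 5 of the 9 genes: Twist1, Twist2, Prrx1, Prrx2 and Hand2. The Twist pair is shown because the ratio of these paralogs did not overlap between genotypes, and Hand2 because it was the one member whose level varied many-fold. Capitals mark matches on either strand to CANNTG (the E-box core bound by Twist and Hand dimers), TAAT (the homeodomain core), TATAAA (the TATA box) and GGGCGG (the GC box), with overlapping matches counted separately. The regions are chr12:33957421-33957720 (plus strand) for Twist1, chr1:91801211-91801510 (plus strand) for Twist2 and chr8:57320733-57321032 (plus strand) for Hand2.
Twist1: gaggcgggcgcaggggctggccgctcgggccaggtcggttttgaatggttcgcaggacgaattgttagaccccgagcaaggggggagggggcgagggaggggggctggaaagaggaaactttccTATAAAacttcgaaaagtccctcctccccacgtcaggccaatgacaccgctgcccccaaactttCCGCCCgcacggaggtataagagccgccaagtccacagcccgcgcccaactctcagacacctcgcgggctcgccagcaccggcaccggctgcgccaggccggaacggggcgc
Twist2: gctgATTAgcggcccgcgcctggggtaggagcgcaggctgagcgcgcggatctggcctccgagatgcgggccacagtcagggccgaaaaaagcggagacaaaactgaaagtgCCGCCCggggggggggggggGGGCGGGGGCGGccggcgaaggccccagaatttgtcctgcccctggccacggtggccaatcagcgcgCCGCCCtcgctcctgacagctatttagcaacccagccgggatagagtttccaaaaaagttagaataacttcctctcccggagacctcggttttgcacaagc
Hand2: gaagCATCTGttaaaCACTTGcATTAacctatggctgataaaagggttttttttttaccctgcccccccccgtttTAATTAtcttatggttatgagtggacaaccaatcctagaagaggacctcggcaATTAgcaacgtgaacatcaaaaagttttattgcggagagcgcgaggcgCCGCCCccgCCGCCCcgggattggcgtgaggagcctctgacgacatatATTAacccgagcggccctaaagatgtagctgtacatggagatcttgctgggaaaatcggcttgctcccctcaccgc
The Twist1 window held 1 TATA box match, 1 GC box match and no E-box or TAAT match, at 66.0% GC. The Twist2 window held 4 GC box matches and 1 TAAT match at 64.7% GC. The Hand2 window held 2 E-box matches, 5 TAAT matches and 2 GC box matches at 50.3% GC. Hand2 was thus the one window of the 5 with an E-box match, while the Prrx1 window held 4 TAAT matches and the Prrx2 window 2 GC box matches. Of 32851 promoters of this length, 72.3% held CANNTG, 58% TAAT, 13.6% TATAAA and 35.7% GGGCGG, and the median GC content was 52.7%.

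The members spanned a wide range of levels per gene length. Twist1 was highest, with a mean of 115 FPKM over the 12 libraries, which ranked 284 among 18751 named genes. Prrx1 followed at 73 FPKM, Prrx2 at 53.8 FPKM and Snai2 at 36.4 FPKM. Twist2 averaged 20.3 FPKM, Alx4 18.7 FPKM, Alx1 12 FPKM and Hand2 1.86 FPKM (rank 12125). The ranges over libraries did not overlap between Twist1 and Prrx1, between Prrx2 and Snai2, between Snai2 and Twist2, or between Alx1 and Hand2. They overlapped for Prrx1 and Prrx2 (Prrx1 was higher in 11 of 12 libraries), for Twist2 and Alx4 (Twist2 was higher in 7 of 12) and for Alx4 and Alx1 (Alx4 was higher in 11 of 12). The coefficient of variation over the 12 libraries was 7.87% to 16.5% for 7 members and 90.6% for Hand2, whose highest library was 27.1 times its lowest.

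**Figure D1:**
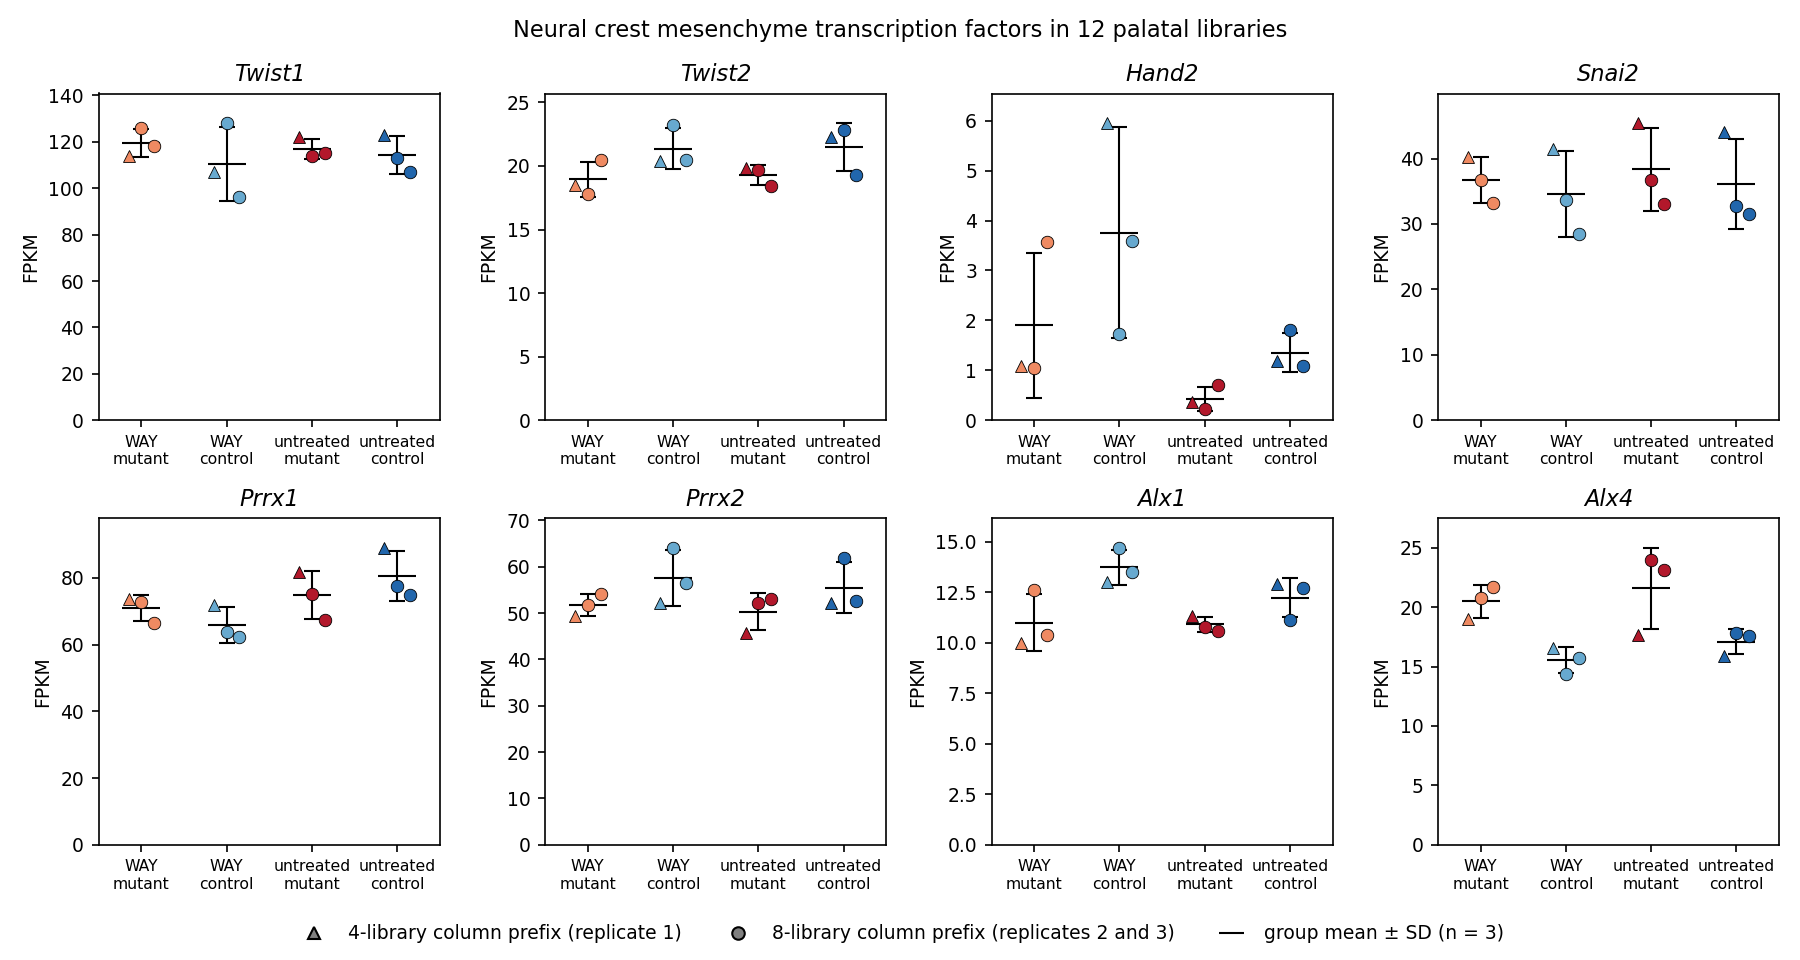
FPKM of the 8 measured members (vertical axes, each starting at 0) in the 4 groups of 3 embryos, with triangles for the 4-library column prefix, circles for the 8-library prefix, and bars for the group mean ± SD. Alx4 sat at 17.7 to 24 FPKM in mutants and 14.4 to 17.8 FPKM in controls, Alx1 at 9.99 to 12.6 FPKM in mutants and 11.1 to 14.7 FPKM in controls, and Hand2 spread from 0.219 to 5.95 FPKM.

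Loss of Pax9 went with a small shift within the Alx pair in opposite directions: Alx4 was 1.28 times as high in mutants as in controls over both treatments, and Alx1 0.85 times. Neither passed in the fit of group means over 12 libraries (limma on log2(FPKM + 0.5), Benjamini-Hochberg adjusted p under 0.05), and both passed once the litter was fitted as a block. Without the block 0 of 8 members passed in untreated embryos, in WAY-treated embryos or over both treatments, against 0.0922%, 0.447% and 0.851% of all 14107 genes tested. The members at an unadjusted p under 0.05 were 2 in untreated embryos (Hand2 and Alx4), 2 in WAY-treated embryos (Alx1 and Alx4) and 4 over both (Twist2, Hand2, Alx1 and Alx4). At that unadjusted level 3.76%, 18.7% and 15.6% of all genes stood in the same comparisons. With the litter block 0, 2 and 2 members passed, against 0.525%, 10.1% and 8.24% of all genes. With a term for the column prefix in place of the litter the same counts were 0, 2 and 2, against 0.737%, 12.8% and 9.87% of all genes. In the 8-library prefix alone they were 0, 1 (Alx4) and 1 (Alx4), against 0.382%, 2.13% and 3.25% of 13868 genes. The median log2 fold change of the 8 members over both treatments was -0.07, and that of all genes tested was -0.03.

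Alx4 encodes a homeodomain activator of frontonasal and limb mesenchyme (chr2:93642384-93681339, plus strand, mm10). Its FPKM was 19, 20.8 and 21.7 in WAY mutants, against 16.6, 14.4 and 15.7 in WAY controls. Untreated mutants stood at 17.7, 24 and 23.1 FPKM, against 15.9, 17.8 and 17.6 FPKM in untreated controls. Each WAY mutant was above each WAY control, as for 20.6% of all genes in either direction, while the lowest untreated mutant lay just under the highest untreated control. The mean was 21 ± 2.39 FPKM in mutants and 16.3 ± 1.3 FPKM in controls (SD, n = 6 each). Over both treatments the log2 fold change was 0.35 ± 0.08 (SE, limma, adjusted p = 0.066). With the litter block Alx4 rose, at 0.35 ± 0.05 (SE, limma, adjusted p = 0.0059), and it passed with each of the 12 libraries left out in turn (0.32 to 0.40, adjusted p 0.005 to 0.024). In WAY-treated embryos alone it also rose with the block, by 0.39 ± 0.07 (limma, adjusted p = 0.022), but not without WAY mutant 2 (0.38, adjusted p = 0.1) or WAY mutant 3 (0.34, adjusted p = 0.068). In untreated embryos it was 0.32 ± 0.07 with the block (limma, adjusted p = 0.13).

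The Alx4 difference was in the same direction in all 4 litters and had the larger values in the 8-library prefix, a gap that was not tested. Mutant minus control was 0.19 in the WAY litter of replicate 1 and 0.49 in the WAY litter of replicates 2 and 3 (log2 scale). The untreated litters gave 0.15 and 0.40 in the same order. In the 8-library prefix alone it was 0.44 ± 0.04 over both treatments (SE, limma, adjusted p = 0.0041), and it was 0.49 ± 0.06 in WAY-treated embryos there (limma, adjusted p = 0.016). In those 8 libraries the summed bone markers (Runx2, Sp7, Ibsp and Bglap) were at 868 to 1102 FPKM in mutants and 579 to 814 FPKM in controls, with no overlap. In the 4-library prefix they were at 43.3 to 78.2 FPKM in mutants and 61.6 to 72.3 FPKM in controls. Runx2 alone ranged from 17.2 to 25.4 FPKM over the 12 libraries, so the genotype gap in the 8-library sums lies mainly in the other bone markers. Its own log2 fold change over both treatments was 0.10 ± 0.11 (SE, limma, adjusted p = 0.72). The share of all genes whose mutants and controls do not overlap within the 8-library prefix was not counted. The part of the bone markers in the Alx4 difference was not tested.

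Alx1, a homeodomain factor needed for frontonasal crest (chr10:102998707-103030215, minus strand, mm10), ran the other way. Its FPKM was 9.99, 12.6 and 10.4 in WAY mutants, against 13, 14.7 and 13.5 in WAY controls. In untreated mutants it was 11.3, 10.8 and 10.6 FPKM, against 12.9, 11.1 and 12.7 FPKM in untreated controls. Every WAY mutant was below every WAY control (20.6% of all genes did not overlap there, in either direction), whereas in untreated embryos 1 control lay within the mutant range. The mean was 10.9 ± 0.904 FPKM in mutants and 13 ± 1.15 FPKM in controls (SD, n = 6 each). Over both treatments the log2 fold change was -0.24 ± 0.06 without the block (SE, limma, adjusted p = 0.12). With the litter block Alx1 fell, at -0.24 ± 0.05 (limma, adjusted p = 0.029), and in WAY-treated embryos at -0.31 ± 0.08 (limma, adjusted p = 0.037). Over both treatments this call held in 4 of 12 fits that each left out 1 library (untreated control 2, WAY mutant 2, WAY control 2 or WAY control 3) and was lost in the other 8 (adjusted p 0.06 to 0.088). In WAY-treated embryos it also held in 4 of 12 such fits (without untreated mutant 1, untreated control 1, WAY mutant 2 or WAY control 3), at an adjusted p of 0.021 to 0.12 over all 12. Alx1 was lower in the mutants of all 4 litters, by a log2 difference of -0.37 and -0.29 in the WAY litters and -0.19 and -0.14 in the untreated litters, the litter of replicate 1 given before the other each time. With terms for heterozygous embryos and the column prefix together neither Alx gene passed over both treatments, at -0.24 ± 0.09 for Alx1 (limma, adjusted p = 0.18) and 0.27 ± 0.08 for Alx4 (limma, adjusted p = 0.11). A non-coding gene on the same strand, Gm17028, shares 4.2% of the exon bases of Alx1.

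**Figure D2:**
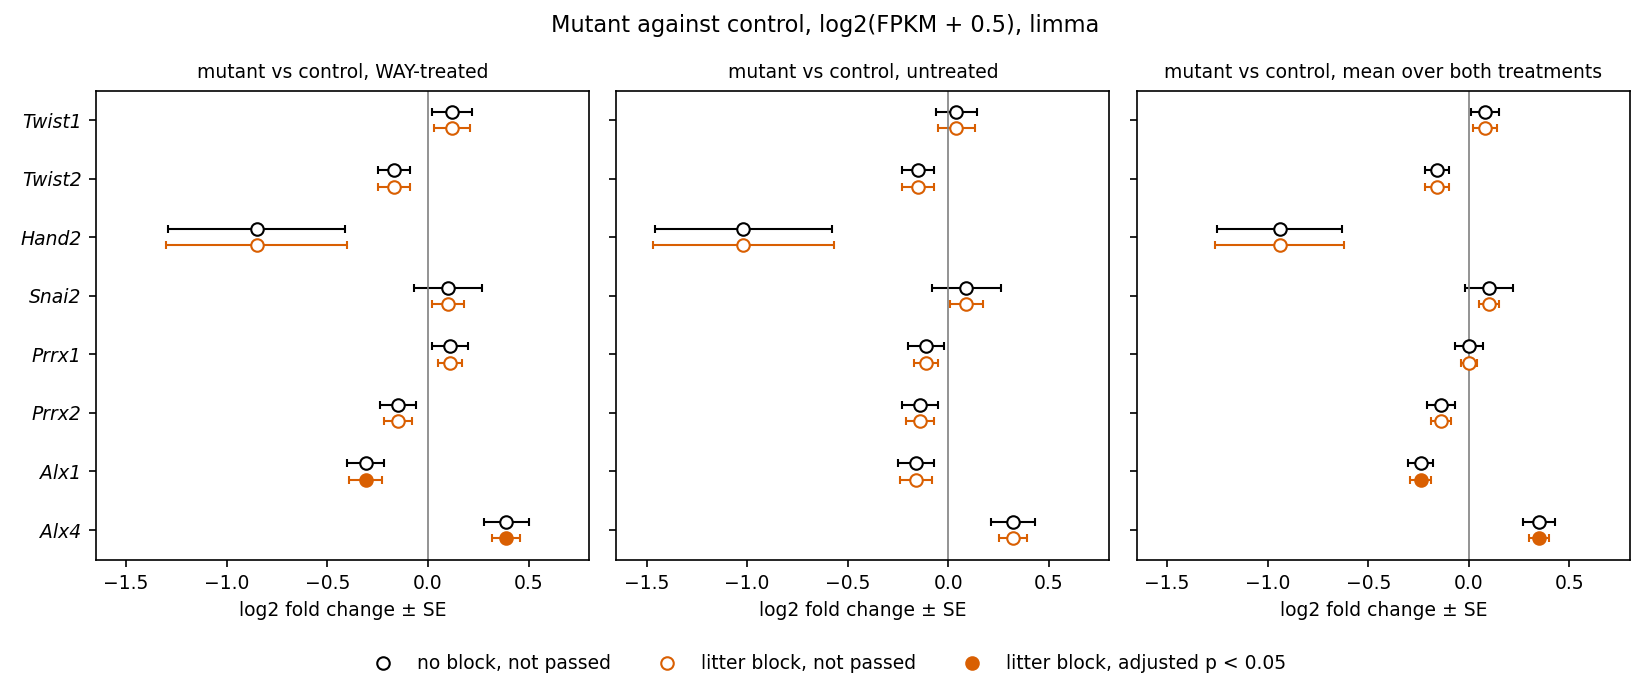
Log2 fold change of mutant over control (horizontal axes, on log2(FPKM + 0.5), bars ± SE) for the 8 members in WAY-treated embryos, untreated embryos and over both, in the fit of group means (black) and with litter as a block (orange), filled where the adjusted p was under 0.05. Alx4 at 0.39 and 0.35 and Alx1 at -0.31 and -0.24 were filled in the WAY-treated and combined panels with the block; the other 6 members were unfilled.

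Set against each other within a library, all 3 paralog pairs had higher mean ratios in mutants, with the ranges apart for the Twist pair only. These ratios were chosen after the values were seen, and they are given as a description with no test. The ratio of Alx4 to Alx1 in FPKM was 1.57 to 2.22 in mutants (mean 1.93 ± 0.27, SD, n = 6), against 0.98 to 1.60 in controls (1.27 ± 0.21, SD, n = 6). The ratio of Twist1 to Twist2 was 5.72 to 7.09 in mutants (6.20 ± 0.49, SD), against 4.70 to 5.54 in controls (5.24 ± 0.36, SD). For the Twist pair the 6 mutants and 6 controls did not overlap, and for the Alx pair 1 mutant, at 1.57, lay just below the highest control, at 1.60. The share of other gene pairs whose ratios do not overlap was not counted, so whether the Twist pair is unusual is not known. The ratio of Prrx1 to Prrx2 overlapped widely, at 1.23 to 1.79 in mutants (1.44 ± 0.20, SD) and 0.99 to 1.71 in controls (1.31 ± 0.25, SD).

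**Figure D3:**
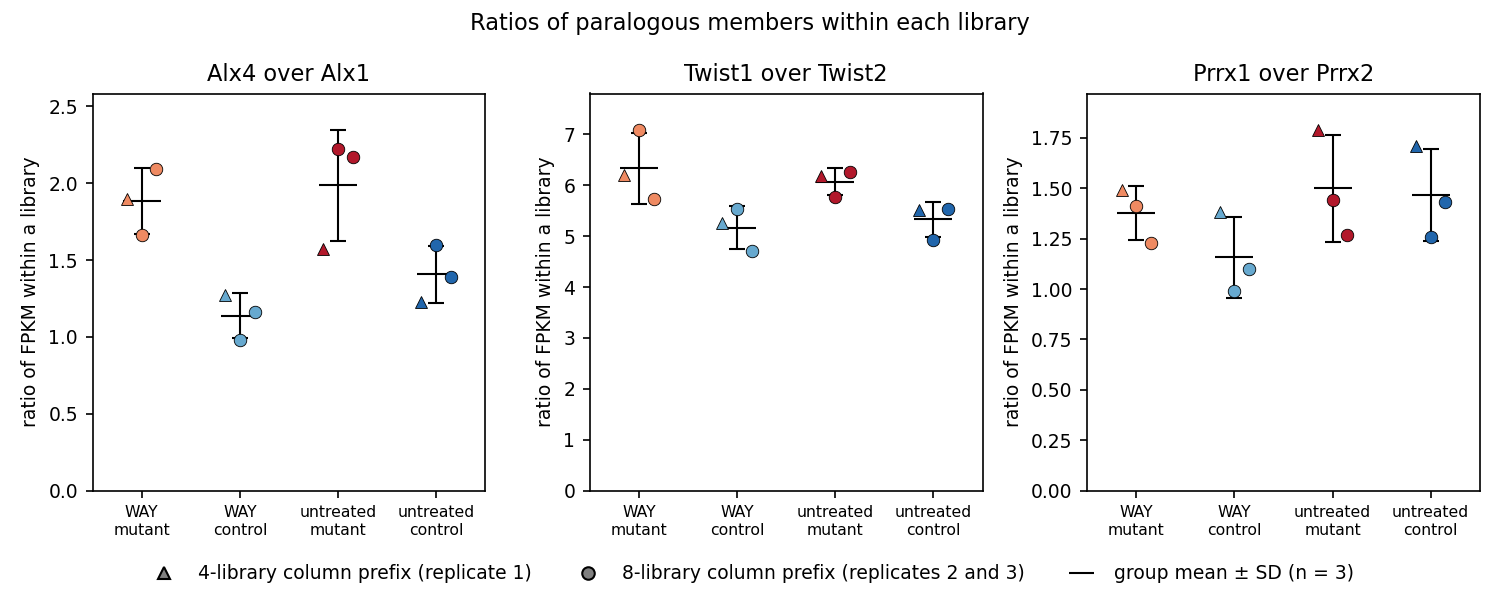
Ratio of the FPKM of paralogous members within each library (vertical axes, from 0) by group, with triangles for the 4-library column prefix, circles for the 8-library prefix and bars for the group mean ± SD (n = 3). Twist1 over Twist2 was 5.72 or more in the 6 mutants and 5.54 or less in the 6 controls, while Prrx1 over Prrx2 overlapped.

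Twist1, the main Twist factor of cranial mesenchyme (chr12:33957671-33959829, plus strand, mm10), had the lowest coefficient of variation of the members over the 12 libraries, at 7.87%, with Twist2 close to it at 8.65%. Among the 6 controls alone Twist2 had a lower one than Twist1, at 7.33% against 10.4%. Its FPKM was 114, 126 and 118 in WAY mutants, against 107, 128 and 96.3 in WAY controls. Untreated mutants measured 122, 114 and 115 FPKM, against 123, 113 and 107 FPKM in untreated controls. The groups overlapped throughout, and the log2 fold change over both treatments was 0.08 ± 0.07 (SE, limma, adjusted p = 0.63). Twist2, its paralog in mesenchyme and dermis (chr1:91801461-91848028, plus strand, mm10), was lower in mutants of all 4 litters without passing the test. Twist2 measured 18.5, 17.8 and 20.5 FPKM in WAY mutants, against 20.4, 23.2 and 20.5 FPKM in WAY controls. The untreated mutants had 19.8, 19.7 and 18.4 FPKM, against 22.3, 22.8 and 19.3 FPKM in untreated controls. The log2 fold change over both treatments was -0.16 ± 0.06 (SE, limma), at an adjusted p of 0.22 without the litter block and 0.1 with it. The antisense gene Gm29100 shares 46.5% of the exon bases of Twist2, and the library kit does not mark strand, so reads of the 2 genes cannot be told apart.

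Prrx1 and Prrx2, which share roles in mesenchymal growth and jaw formation, passed in none of the genotype comparisons. Prrx2 (chr2:30834972-30881251, plus strand, mm10) was at 49.4, 51.8 and 54.1 FPKM in WAY mutants, against 52.1, 64.1 and 56.5 FPKM in WAY controls. Among untreated embryos mutants stood at 45.7, 52.1 and 53.1 FPKM, against 52.1, 61.8 and 52.5 FPKM in untreated controls. It was lower in the mutants of all 4 litters, but the log2 fold change of -0.14 ± 0.07 (SE, limma, adjusted p = 0.33) did not pass, nor did it with the litter block (adjusted p = 0.096). In all, 5 of 8 members had the same sign in 4 of 4 litters (Alx4 higher; Alx1, Hand2, Twist2 and Prrx2 lower in mutants), as did 31.9% of all genes tested.

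Prrx1 (chr1:163245119-163313710, minus strand, mm10) had its widest difference between treatments, among controls. Its FPKM was 73.5, 72.8 and 66.3 in WAY mutants, against 81.7, 75.1 and 67.3 in untreated mutants. In WAY controls it was 71.9, 63.6 and 62.1 FPKM, against 89, 77.6 and 74.9 FPKM in untreated controls. Among controls each WAY embryo was below each untreated one, as in 19.8% of all genes in either direction, and among mutants the groups overlapped. The log2 fold change of WAY over untreated was -0.29 ± 0.09 in controls (SE, limma, adjusted p = 0.2) and -0.07 ± 0.09 in mutants (adjusted p = 1). With a term for the column prefix Prrx1 fell in WAY controls, at -0.29 ± 0.05 (limma, adjusted p = 0.041), where 2.66% of all genes passed, but the 2 dams of each treatment are not separated by that term. With litter as a random effect it did not pass (-0.30 ± 0.10, limma, adjusted p = 0.77). The difference between mutants and controls in the WAY effect was 0.21 ± 0.13 (limma, adjusted p = 0.96). Mutant over control across treatments was -0.00 ± 0.07, and its sign turned with median-ratio scaling (0.03) and in the 8 libraries alone (0.02).

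Snai2, a zinc-finger repressor of the epithelial cadherin gene (chr16:14705852-14709385, plus strand, mm10), followed the column prefix rather than genotype or treatment. It was at 40.3, 36.7 and 33.2 FPKM in WAY mutants, against 41.5, 33.7 and 28.4 FPKM in WAY controls. Untreated mutants stood at 45.4, 36.7 and 33 FPKM, against 44.1, 32.7 and 31.6 FPKM in untreated controls. Replicate 1, of the 4-library prefix, was the highest library in every group. The 8-library prefix averaged 33.2 ± 2.71 FPKM and the 4-library prefix averaged 42.8 ± 2.32 FPKM (SD), a ratio of 0.78 with no overlap. The summed neural crest mesenchyme markers were higher in the 8-library prefix, where Snai2 was lower. The members in that sum did not share this gap, with ratios of 8-library to 4-library means of 0.98 (Twist1), 0.89 (Prrx1) and 1.12 (Prrx2). Col1a1, also in that sum, ranged from 365 to 1519 FPKM over the 12 libraries. Snai2 was the one member whose prefixes did not overlap, as was so for 22% of all genes, and its genotype difference over both treatments was 0.10 ± 0.12 (log2, SE, limma, adjusted p = 0.75).

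Hand2, which drives lower-jaw identity in ectomesenchyme and noradrenergic differentiation in sympathetic neurons (chr8:57320983-57324633, plus strand, mm10), was the lowest and most variable member. Its FPKM was 1.08, 1.05 and 3.57 in WAY mutants, against 5.95, 1.73 and 3.59 in WAY controls. Untreated mutants measured 0.358, 0.219 and 0.702 FPKM, against 1.18, 1.8 and 1.09 FPKM in untreated controls. These values rest on 89, 88 and 317 reads in WAY mutants, 608, 150 and 321 in WAY controls, 40, 23 and 69 in untreated mutants, and 102, 163 and 96 in untreated controls. Each untreated mutant was below each untreated control (9.41% of all genes did not overlap there), and each WAY mutant was above each untreated mutant (3.7% of all genes), but WAY mutants and WAY controls overlapped. Mutant over control was -0.94 ± 0.31 on the log2(FPKM + 0.5) scale over both treatments (SE, limma), at an adjusted p of 0.19 without the litter block and 0.098 with it. It passed with the block only when WAY mutant 3 was left out (-1.22, adjusted p = 0.03). WAY over untreated was 1.25 ± 0.44 in mutants (limma, adjusted p = 1) and 1.09 ± 0.44 in controls (limma, adjusted p = 0.28). The added 0.5 FPKM understates fold changes at this low level, and the opposite-strand gene Hand2os1 shares 19.6% of the exon bases of Hand2.

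Neuron markers were highest and lowest in the libraries at the ends of the Hand2 range, and followed its order only in part between them. The libraries with the 3 highest Hand2 levels, WAY mutant 3, WAY control 1 and WAY control 3, also had the 3 highest sums of 5 general neuron markers (Tubb3, Elavl3, Elavl4, Stmn2 and Snap25), at 70.8, 77.9 and 77.4 FPKM. The libraries with the lowest Hand2, untreated mutants 2 and 1, had the lowest sums, at 11.8 and 13.6 FPKM. Between these ends, untreated control 2 and WAY control 2 were next in Hand2, at 1.8 and 1.73 FPKM. They also had the next highest sums, at 40.5 and 48.2 FPKM. Untreated mutant 3, with Hand2 at 0.702 FPKM, was out of order, with a sum of 32.8 FPKM. That was above the 29.8 and 16.8 FPKM of untreated controls 3 and 1, with Hand2 at 1.09 and 1.18 FPKM. Markers of sympathetic neurons differed among themselves. Phox2a, a factor of autonomic neurons, was highest in the same 3 libraries, at 3.63, 4.27 and 3.57 FPKM, and lowest in untreated mutants 2 and 1, at 0.104 and 0.127 FPKM. Th, an enzyme of noradrenaline synthesis, was at 0.138, 0.583 and 0.264 FPKM in those 3 libraries and highest in untreated mutant 3, at 0.712 FPKM. Dbh, another enzyme of that pathway, was at 0.42, 1.38 and 0.278 FPKM in the 3 libraries and at 0.0792 and 0.432 FPKM in untreated mutants 2 and 1. Over groups the summed general neuron markers ran from 20.6 to 70.8 FPKM in WAY mutants, 48.2 to 77.9 in WAY controls, 11.8 to 32.8 in untreated mutants and 16.8 to 40.5 in untreated controls. The part of neuronal RNA in the Hand2 differences was not tested.

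**Figure D4:**
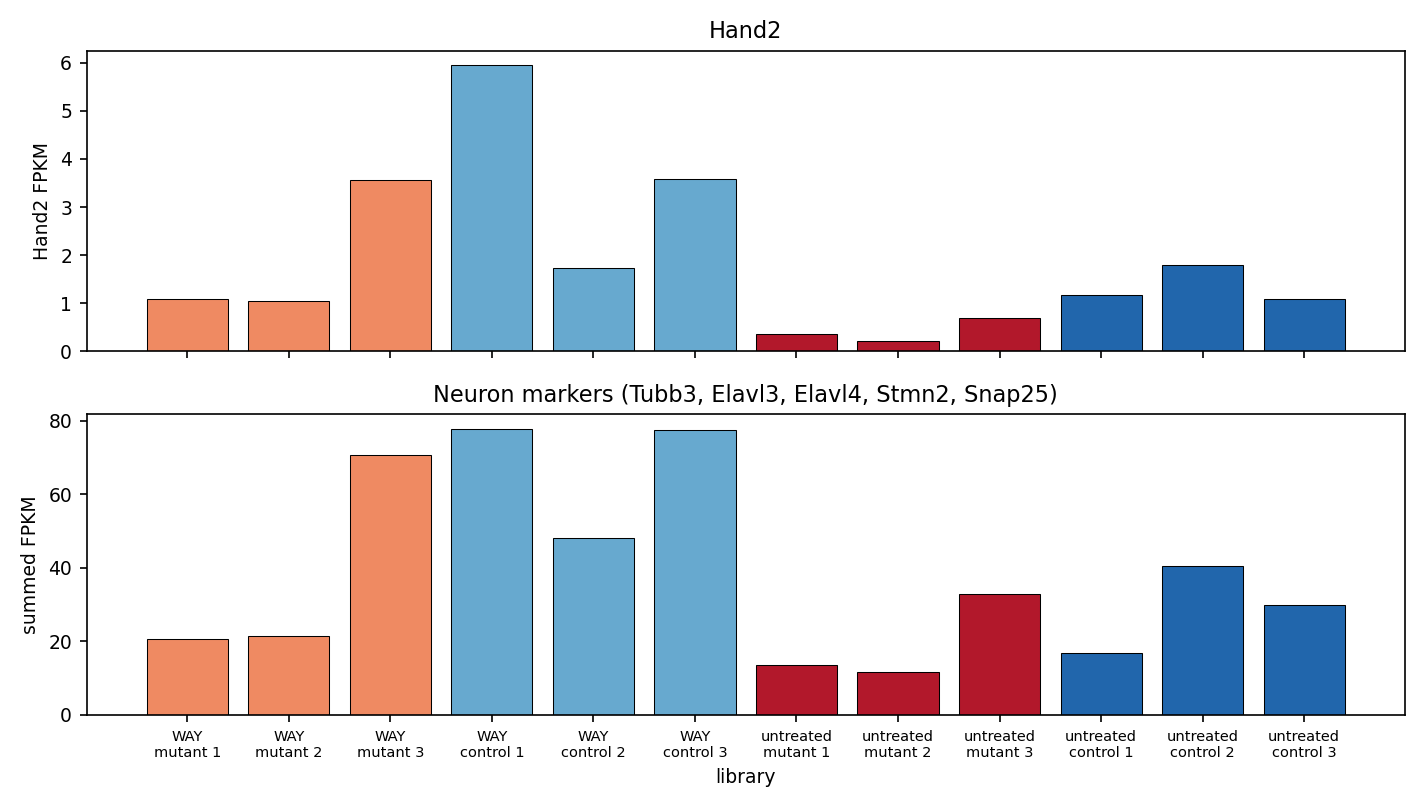
FPKM of Hand2 (top) and the summed FPKM of 5 neuron markers (bottom) in each of the 12 libraries. WAY mutant 3, WAY control 1 and WAY control 3 were highest in both panels, and untreated mutants 1 and 2 were lowest.

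No member passed in the treatment comparisons or in the interaction in the fit of group means, where 0% of all genes passed. At an unadjusted p under 0.05 there was 1 of 8 members in mutants (Hand2), 2 in controls (Prrx1 and Hand2) and 0 in the interaction, against 0.943%, 15.8% and 4.99% of all genes. Apart from Hand2, the WAY effect in mutants lay between -0.07 and 0.04 on the log2 scale. In controls Alx1 was at 0.16 ± 0.09 (SE, limma, adjusted p = 0.4), with every WAY control above every untreated control (19.8% of all genes did not overlap there, in either direction). Treatment rests on 2 litters a side, so it cannot be told apart from differences between dams.

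The controls held 3 heterozygous and 3 wild-type embryos, which the design does not compare cleanly. All 3 heterozygous embryos were of the 8-library prefix and 2 of them were untreated, while 2 of the 3 wild-type embryos were of the 4-library prefix and 2 were WAY-treated. An exact two-sided permutation test of FPKM, which leaves prefix, litter and treatment out of account, gave p from 0.2 to 1 over the 8 members (0.91 to 1 after Benjamini-Hochberg adjustment over 8 tests). With 3 against 3 it cannot go below 0.1, so it could not have passed for any member and does not show that they were alike. The widest relative gap was that of Hand2, at 1.54 ± 0.39 FPKM in heterozygous and 3.57 ± 2.39 FPKM in wild-type embryos (SD, n = 3 each). Alx4 was at 16.6 ± 1.94 FPKM in heterozygous and 16.1 ± 0.479 FPKM in wild-type embryos, both under the mutant mean of 21 FPKM.

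Other ectomesenchyme and crest transcription factors showed 1 strong change in Pax9 mutants. Of 21 listed, 19 were tested, and over both treatments Tfap2b fell by 1.53 ± 0.15 on the log2 scale (SE, limma, adjusted p = 0.0012), and no other passed without the litter block. Tfap2b, an AP-2 factor of crest and facial mesenchyme, averaged 3.53 ± 0.783 FPKM in WAY mutants and 10.9 ± 2.16 FPKM in WAY controls (SD, n = 3 each). Untreated mutants averaged 3.66 ± 0.505 FPKM, against 12 ± 3.9 FPKM in untreated controls. With the block 1 of 19 rose (Sox9, the cartilage and crest factor, 0.32 ± 0.03) and 3 fell (Tfap2b, Tfap2a and Gsc, the last at -0.31 ± 0.07), where 8.24% of all genes passed. In WAY-treated embryos with the block Meox2, a homeobox gene of mesoderm and palate, also rose (0.29 ± 0.07, SE, limma, adjusted p = 0.033). The list's median was -0.04 and that of all genes -0.03. Snai1, a close relative of Snai2, was at -0.08 ± 0.11 (SE, limma, adjusted p = 0.78).

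Twist and Hand proteins work as dimers with E proteins, and Id proteins capture those E proteins. All 7 listed E protein and Id genes were tested, and over both treatments Id4 fell, at -0.52 ± 0.06 (SE, limma, adjusted p = 0.0025), and Id2 rose, at 0.24 ± 0.04 (adjusted p = 0.035). Id4 averaged 11.9 ± 0.852 FPKM in WAY mutants and 16.8 ± 1.68 FPKM in WAY controls, and 12.9 ± 0.337 FPKM in untreated mutants and 19.1 ± 1.35 FPKM in untreated controls (SD, n = 3 each). Id4 also fell in each treatment alone, at -0.48 ± 0.08 in WAY-treated embryos (limma, adjusted p = 0.041) and -0.55 ± 0.08 in untreated embryos (limma, adjusted p = 0.046). The E protein gene Tcf4 passed with the litter block only (0.20 ± 0.04, limma, adjusted p = 0.024), and with it Id3 fell in WAY-treated embryos (-0.28 ± 0.07, limma, adjusted p = 0.045). The median of the 7 was -0.01.

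Among 13 genes that act upstream of Hand2 or in jaw patterning, 12 were tested and 1 rose over both treatments. Mef2c, a mediator of endothelin signalling in crest, was at 0.44 ± 0.08 (SE, limma, adjusted p = 0.034), with 30.3 ± 2.01 FPKM in WAY mutants and 21.1 ± 2.02 FPKM in WAY controls. Untreated mutants had 28.5 ± 1.6 FPKM, against 22.1 ± 3.51 FPKM in untreated controls (SD, n = 3 each). The ligand gene Edn1 was at 0.09 ± 0.10 and its receptor gene Ednra at 0.13 ± 0.07 (limma, adjusted p = 0.71 and 0.4), so neither passed. With the block 2 rose (Mef2c and Dlx6) and 2 fell (Dlx2 and Ece1). Of 17 mesenchyme and epithelial-mesenchymal genes, none passed without the block, and with it 4 rose (Tnc, Cdh11, Col1a2 and Cdh2) and 3 fell (Thy1, Epcam and Cdh1), where 8.24% of all genes passed. Thy1, a surface protein of fibroblasts, neurons and lymphocytes, was at -0.64 ± 0.10 (SE, limma, adjusted p = 0.006), while Epcam and Cdh1 mark epithelium. The summed oral epithelium markers were at 703 to 769 FPKM in mutants and 742 to 1011 FPKM in controls of the 8-library prefix, and at 289 to 343 FPKM in mutants and 373 to 434 FPKM in controls of the 4-library prefix. Epcam and Cdh1 are themselves in this sum, with Krt5, Krt14, Krt8, Krt18, Krt15 and Trp63, so it is not separate from their falls. The part of epithelial RNA in the falls of Epcam, Cdh1, Tfap2b and Tfap2a was not tested. No gene of the 4 lists passed in a treatment comparison or the interaction.

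The genes whose levels ran most like each member's were found by Pearson's r over the 12 libraries, after the mean of each column prefix was subtracted from log2(FPKM + 0.5). They are a description, since the libraries share litters, groups and depth, and each is the highest of about 8954 candidates with a mean of at least 5 FPKM. For Hand2 they were Tubb3 (r = 0.95), a neuronal tubulin, and Tagln3 (0.94), a neuronal actin-binding protein. For Alx4 they were Igfbp5 (0.97), a secreted binding protein of insulin-like growth factors, and Adamts14 (0.96), a procollagen protease. Alx1 ran closest to Ints13 (0.94) and Cdk11b (0.93), Twist1 to Zfp868 (0.94) and Zfp950 (0.92), and Twist2 to Letm1 (0.92) and Nol10 (0.85). Prrx1 ran closest to Nucks1 and Ccdc71l (0.96 each), Prrx2 to Zfp622 (0.92) and Tubb5 (0.91), and Snai2 to Impact (0.90) and Ugdh (0.89). No member was among another's nearest genes.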

How the data were processed

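The authors deposited 1 table of FPKM values for 12 libraries, made from oligo(dT)-selected TruSeq v2 libraries per the labels' protocols, and the submitters' processing notes name Novoalign 2.08.03, DESeq2 and mm10. The sources used here do not give the annotation, the counter, whether strand was used, or how the 19083 genes were selected. FPKM values are not counts, so no count model was used. Each gene's values were whole multiples of 1 read within 0.01 read for 19083 of 19083 genes (100.0%). These reads summed to 36.9 to 49.9 M a library over the genes of the table, and reads outside those genes are not counted. The number of reads limits the precision of low genes such as Hand2 by counting error. Symbols and positions came from GENCODE M21 (18752 genes matched). No library duplicated another of its group, with chi-square per degree of freedom from 4.38 to 103.6.

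The 14107 genes that reached 1 FPKM in 3 or more libraries were tested on log2(FPKM + 0.5) in R 4.3.3 with limma 3.58.1, using group means over 12 libraries, a mean-dependent trend, and Benjamini-Hochberg adjustment over all genes tested at 0.05, two-sided. The 6 comparisons were mutant against control in WAY-treated embryos, in untreated embryos and averaged over both, WAY against untreated in mutants and in controls, and the interaction. Same-numbered mutants and controls deviated together (correlation of deviations 0.83 in both WAY litters and 0.75 in both untreated ones). Both litters of a treatment must give the same value when deviations are from a shared group mean, so the values are not separate observations. Since litter coincides with column prefix within each treatment, the correlation cannot tell a shared litter from a shared prefix. It does not show that the title number is the litter. The number in the sample titles, read as the litter, was added as a block in an alternative fit. For treatment it was added as a random effect (consensus correlation 0.50). The fit of group means was tested on simulated data that held no litter, prefix or heterozygote differences. The alternative fits were not tested on simulated data. The alternatives were pseudocounts of 0.1 and 1, no filter or one at 5 FPKM, median-ratio scaling, terms for the column prefix and for heterozygous embryos, the 8-library prefix alone, and each library left out in turn. Embryos are single animals, but litter mates share a dam.

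The 9 members and the gene and marker lists were chosen with earlier results of these data known. The text names all members, list genes that passed without or with the litter block (with their ligand, receptor and a close relative as values) and the 2 genes nearest each member in pattern. Single-value tests used exact permutations in SciPy 1.17.1. In the mesenchyme list 7 genes passed, over the planned limit of 6 a list, and all 7 are named. Some listed genes are not reported here.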

Additional observations from a re-analysis of the deposited data

How the results depend on the processing

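None of the members had passed in the fit of group means, so no call could be lost. Over the 553 values of 18 member results under other settings, 496 kept their direction and side of the threshold, 44 newly passed and 13 changed sign, all 13 for Prrx1 over both treatments (0.03 with median-ratio scaling, 0.02 in the 8 libraries alone, -0.03 to 0.04 without each library in turn, and -0.03 to 0.02 with the litter block as well). Without the block, leaving out each library gave 0 to 1 members over both treatments (Alx4 without untreated mutant 1, 0.42, limma adjusted p = 0.011) and 0 in the other comparisons.

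The pairing by litter block raised the members that passed to 2 in WAY-treated embryos and 2 over both treatments; a prefix term gave 2 and 2, and also 1 for WAY against untreated in controls, as did prefix and heterozygote terms together (1). The 8 libraries alone gave 1 and 1. With the block and each library left out in turn, an alternative chosen after seeing the data, 0 to 2 members passed in WAY-treated embryos, 1 to 2 over both and 0 in untreated embryos. With prefix and heterozygote terms no member passed in a genotype comparison.

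All genes passed as follows, against 63, 13 and 120 in WAY-treated, untreated and both: 1420, 74 and 1163 with the litter block, 1807, 104 and 1393 with the prefix term, 647, 40 and 334 with prefix and heterozygote terms, and 295, 53 and 451 in the 8 libraries alone; the 5 FPKM filter gave 71 over both, where fewer genes are tested. WAY against untreated in controls gave 375 with the prefix term and 1244 with both terms, against 0 (2225 at an unadjusted p under 0.05). Without each library the ranges were 10 to 79, 0 to 12 and 42 to 131, and 0 to 1 for WAY in controls, and with the block 108 to 3550, 17 to 149 and 517 to 2603, and 0 to 1 for the interaction. The split of higher and lower genes moved from 36 and 27 to 46 and 19 in WAY-treated embryos, and from 45 and 75 to 60 and 53 over both, with median-ratio scaling. The cause of these differences between settings was not tested. Recovered reads of 23 to 608 limit Hand2 alone among the members.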
